A study of Schizosaccharomyces pombe with 40 samples.

Results

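The 47 genes described here carry the names of proteins of the mitochondrial ribosome, which translates the few messages encoded in mitochondrial DNA. They were chosen by symbol alone: every gene whose name on the array began with mrpl, mrps or mrp followed by a number. These were 29 mrpl genes of the large subunit, 8 mrps genes of the small subunit and 10 genes named mrp and a number. They stood among 4816 named genes and 5042 features on the array. All 47 were measured by 2 probes each and passed the filter on missing values, as did 5004 of all features.

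The mitochondrial ribosome is built almost wholly from proteins encoded in the nucleus, made in the cytosol and imported, together with ribosomal RNA from mitochondrial DNA. Its products are core subunits of the respiratory chain and ATP synthase, so cells need it to respire. In budding yeast, many of its proteins have bacterial counterparts and others are found in mitochondria only. By the budding yeast names, mrp7 and mrp20 belong to the large subunit and mrp2, mrp4, mrp10, mrp17, mrp21 and mrp51 to the small one, while mrp11 and mrp5 are listed in RefSeq as synonyms of mrpl11 and mrps5.

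Fission yeast (Schizosaccharomyces pombe) RNA was hybridised on 40 two-colour arrays. The strains C delta21, C delta53 and C delta94 are taken as truncations of rep2 and 2C/S-H/Y as a site mutant, from the titles and growth notes read together; which residues each lacks is not given in the labels. Rep2 is an activator of MBF, the transcription factor complex that drives genes of the G1/S transition, and hydroxyurea (HU) blocks ribonucleotide reductase and so slows DNA replication. Each strain grew in the rich medium YES to mid log phase, received 8 mM HU and was sampled at 0, 10, 30, 60 and 120 min, with 2 arrays for each strain and time. Each array compared the strain's RNA, labelled with Cy5, with pooled wild-type mid-log RNA, labelled with Cy3. No array carried wild-type cells as the sample, no dyes were swapped, and a wild-type response to HU is not part of these data. Whether both arrays of a strain and time stem from different cultures is not stated; the p-values cover array-to-array spread, which may be only technical. All values below are log2 ratios of strain over reference (1 unit is a doubling), a direction taken from the dyes because it is not stated with the values. A gene is called higher or lower where limma's test, adjusted over all 5004 features, gave a p below 0.05; SE is that fit's standard error.

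Several arrays stood apart. The 2 arrays of every C delta53 time, and the replicate 1 arrays of 2C/S-H/Y at 30 and 60 min, differed by an SD of only 0.058 to 0.0829 across features, against 0.143 to 0.324 for the other 15 replicate pairs. Every comparison was therefore also tested with such pairs counted once. The fit takes 1 spread per gene from all 20 groups, so near-repeat pairs also bear on the p-values of the other strains. In 2C/S-H/Y the first time differed from the later ones: the correlation of its 0 min arrays across features with its 10 min arrays was 0.59, against 0.83 to 0.95 in the other strains, while its 10 and 30 min arrays correlated at 0.92. For C delta94, the change labelled 30 min correlated at 0.67 with the mean 120 min change of the other strains, and the change labelled 120 min at 0.33, so its times are given as labelled. The rep2 probes averaged −0.695 and −0.899 in C delta21, −1.36 and −4.68 in C delta53, −5.19 and −5.09 in C delta94, and 0.63 and −0.10 in 2C/S-H/Y.

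**Figure D1:**
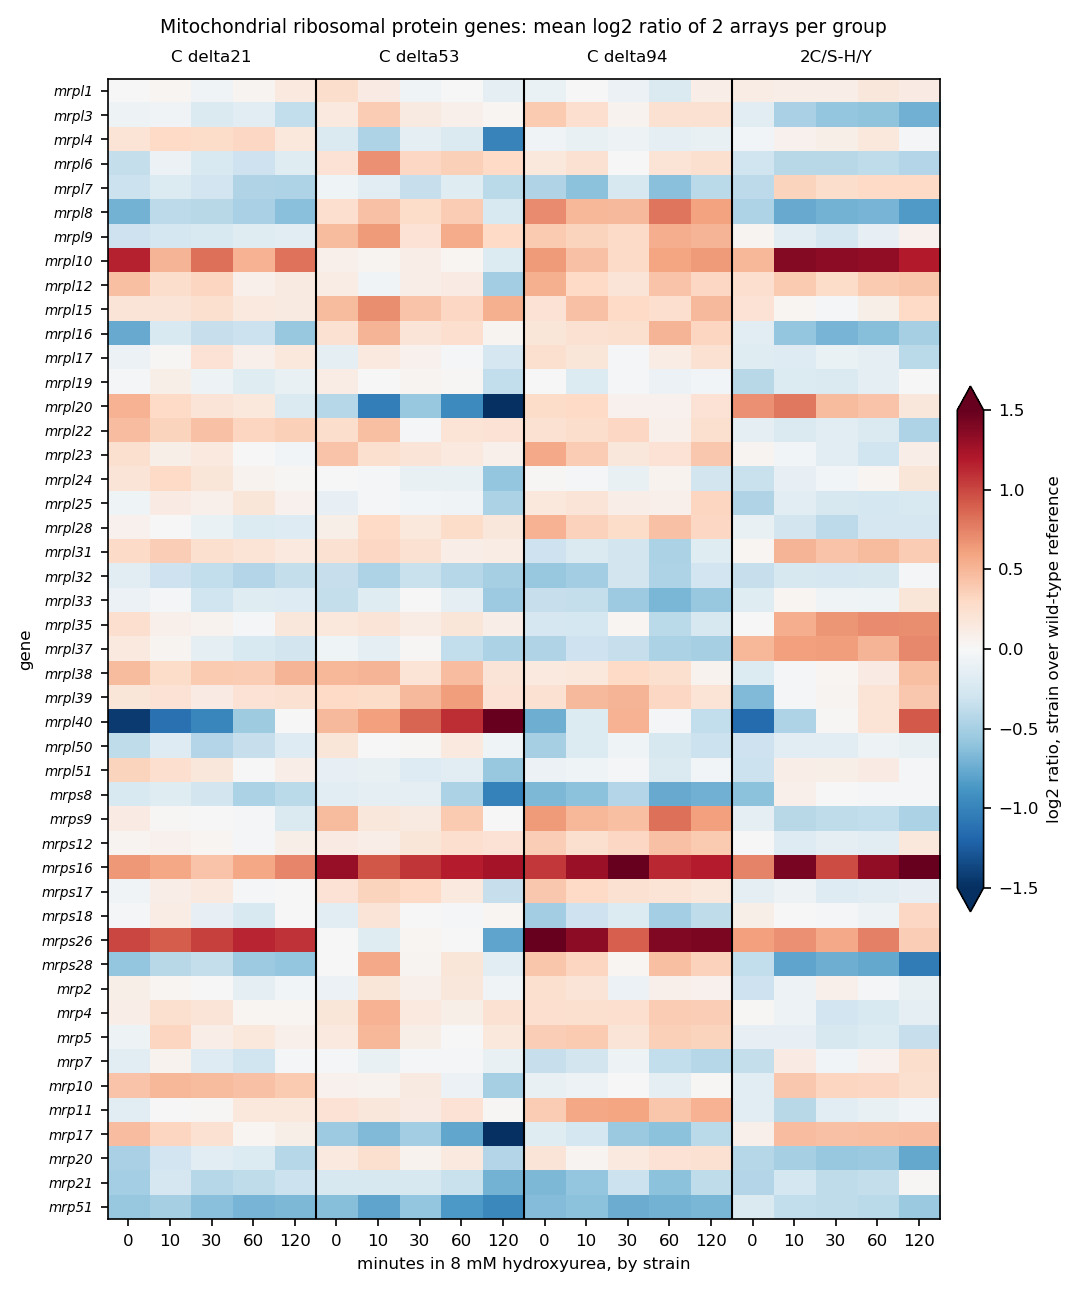
Mean log2 ratio of strain over wild-type reference for the 47 genes (rows) in each of the 20 groups of 2 arrays (columns, by strain and time in min); the colour scale is clipped at 1.5 in either direction. The genes do not move as a block: mrps16 is above 0 in every column, mrp51 is below 0 in every column, and mrpl20 and mrp17 are lowest in C delta53 at 120 min.

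Before HU, the median of the 47 genes and the members called against the reference varied by strain. The strains were not tested against each other at 0 min. Set against the reference at 0 min, C delta94 had 23 of them higher and 14 lower, where 31.6% of all features were higher and 35.8% lower, and the median of the 47 was 0.19. The small-subunit mrps genes took part in this, with 6 of 8 higher, 2 lower and a median of 0.41. 2C/S-H/Y had the opposite balance, with 7 higher and 19 lower (24.3% and 24.3% of all features) and a median of −0.16. C delta53 had 16 higher and 9 lower (29.0% and 28.3% of all features; median 0.11), and C delta21 had 16 higher and 13 lower (27.8% and 26.1%; median 0.00). The reference is 1 pooled RNA, so these counts leave out the spread of wild-type cells and any effect of the dyes.

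Single genes were far from the reference in several strains. The gene mrps26, named pet123 in budding yeast and found in mitochondrial ribosomes only, read 1.55 and 1.49 on the C delta94 arrays at 0 min and 1.04 and 0.97 in C delta21. The arrays of 2C/S-H/Y read 0.66 and 0.57 and those of C delta53 −0.01 and −0.00. Each pair of arrays lay close together, though that of C delta53 is a near-repeat pair, whose closeness says little. The C delta53 arrays lay at the reference level (adjusted p = 0.949). The fitted differences from the reference were 1.52 in C delta94 (SE 0.104, adjusted p = 1.03e-12), 1.00 in C delta21 (adjusted p = 1.09e-08) and 0.61 in 2C/S-H/Y (adjusted p = 2.42e-05).

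The gene mrps16, a small-subunit protein with a bacterial counterpart, was higher than the reference in all 4 strains at 0 min. It read 0.84 and 0.46 in C delta21, 1.25 and 1.36 in C delta53, 1.11 and 1.01 in C delta94, and in the site mutant 0.60 and 0.90. Its array values were above 0 on all 40 arrays, from 0.34 to 2.02. The fitted excess ran from 0.65 in C delta21 (adjusted p = 7.18e-05) to 1.30 in C delta53 (adjusted p = 1.26e-09). In C delta21 only 1 of its probes passed the test by itself, the other having an adjusted p of 0.0587. The opposite case was mrp51, a small-subunit protein, which lay between −0.18 and −1.0 on all 40 arrays and was 0.64 lower than the reference in C delta53 (log2 difference −0.64, SE 0.108, adjusted p = 1.51e-05).

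Other members also lay away from the reference, and of these mrpl8 did so in opposite directions between strains. The large-subunit gene mrpl8, whose protein has a bacterial counterpart, read −0.62 and −0.80 in C delta21 at 0 min but 0.74 and 0.68 in C delta94. These were the fitted values −0.71 (adjusted p = 1.92e-08) and 0.71 (adjusted p = 4.9e-09). The large-subunit gene mrpl16 read −0.87 and −0.65 in C delta21 (fitted −0.76, adjusted p = 6.23e-06). Of the small subunit, mrps8 read −0.70 and −0.66 in C delta94 and −0.58 and −0.64 in 2C/S-H/Y, and mrp21 read −0.67 and −0.68 in C delta94. All of these were lower than the reference, at adjusted p-values of 1.06e-09, 3.02e-08 and 1.43e-08. Both genes were called lower in every strain. In the remaining strains mrps8 was at −0.22 in C delta21 and −0.17 in C delta53. There mrp21 was at −0.51 in C delta21, −0.24 in C delta53 and −0.44 in 2C/S-H/Y. The large-subunit gene mrpl38 was higher in C delta53, at 0.50 and 0.49 (adjusted p = 2.87e-05). It was higher in C delta21 too, at a fitted 0.48 (adjusted p = 5.15e-05).

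The counts at 0 min fell when 1 array was left out. That leaves 1 array in the group and widens its standard error, so these counts do not separate a deviating array from lost precision. Here and below, the share of all features was not computed with 1 array left out. Without replicate 1 or replicate 2 of C delta53 at 0 min the 25 members called there became 13 or 12, and with its near-repeat arrays counted once 7 were higher and 3 lower, against 14.1% and 14.4% of all features. Without replicate 1 of 2C/S-H/Y the 26 members called there became 17. In C delta21 the 16 higher members became 9 without replicate 1 and 10 without replicate 2.

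**Figure D2:**
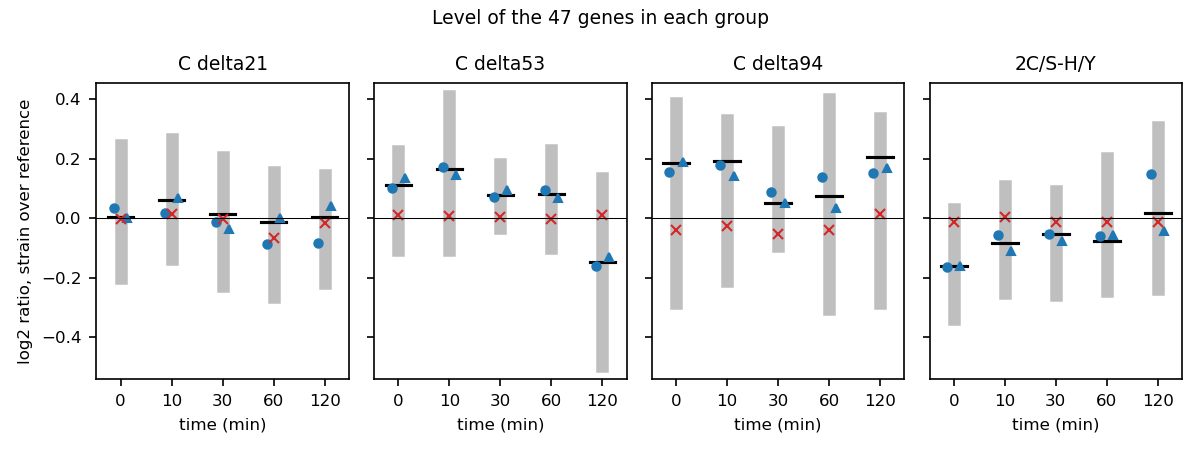
Median log2 ratio of the 47 genes against time in HU, 1 panel per strain: the grey bar spans the quartiles of the 47 genes, the black line is the median of their group means, blue circles and triangles are the medians of replicates 1 and 2, and red crosses are the median of all features. The median of the genes ends at −0.15 in C delta53 and 0.02 in 2C/S-H/Y, having started at 0.11 and −0.16.

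Averaged over the 4 strains, most changes during HU were small, and at the last time more members were lower than higher. At 10 min, 9 of 47 were higher and 0 lower than at 0 min, against 5.50% and 4.0% of all features, with a member median of 0.06. For the 0 lower, limma gave 3 at an unadjusted p below 0.05. With both probes required to pass, 0 were called higher, against 1.03% of all features, and limma gave 4 at an unadjusted p below 0.05. Most of the 9 were also lost with near-repeat arrays counted once, as given under the dependence on processing. Beside mrpl40, the largest rises at 10 min were 0.23 for mrpl39 (adjusted p = 0.0316), 0.21 for mrps8 (adjusted p = 0.00459) and 0.19 for mrp5 (adjusted p = 0.0117). At 30 min, 6 were higher and 5 lower (13.1% and 13.6% of all features), and at 60 min 2 were higher and 4 lower (12.9% and 20.2%). At 120 min, 6 were higher and 16 lower (23.9% and 24.4%), with a median of −0.02. Without C delta94, whose times are given as labelled, the median of the members was −0.05, against −0.019 for all features. With near-repeat arrays counted once 3 were higher and 10 lower (18.1% and 17.8%). The 16 were spread over the groups: 8 of 29 mrpl genes, 5 of 8 mrps genes and 3 of 10 mrp genes.

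The gene that fell most on average was mrpl20, a large-subunit protein found in mitochondria only, at −0.71 after 120 min (SE 0.080, adjusted p = 2.7e-08), or 1.64-fold. It was already lower at 30 min by 0.22 and at 60 min by 0.34 on the log2 scale (adjusted p = 0.0413 and 0.00172). Others lower at 120 min were mrps9 at −0.30 (adjusted p = 0.00256), mrp17 at −0.29 (adjusted p = 1.33e-05), mrpl3, whose protein is related to RNase III, at −0.28 (adjusted p = 4.54e-05), mrps26 at −0.27, mrpl12 at −0.25, mrps28 at −0.23 and mrpl8 at −0.22. The large-subunit gene mrpl23 was lower at 30 and 60 min, at −0.23 and −0.31. Higher at 120 min were mrpl40 at 1.29, treated below because of its probes, mrps16 at 0.30, mrpl39 at 0.25, mrps18 and mrp7 at 0.15 each and mrpl35 at 0.14. The averages of mrps16, mrpl39, mrp7 and mrpl35 came from 2C/S-H/Y: without that strain they were 0.05, −0.020, −0.011 and −0.040, none past the test. Quantile normalization turned the average of mrps16 to −0.15 (adjusted p = 0.189), and the probes of mrps18 had opposite signs, at 0.348 and −0.0535. Without 2C/S-H/Y the 9 members higher at 10 min became 5, where 3.04% of all features were higher and 1.9% lower. Fewer than the 11 at 30 min were called without replicate 1 of 2C/S-H/Y at 30 min. The 5 lower at 30 min became 2 without that array or without replicate 2 of 2C/S-H/Y at 0 min. They became 3 without any 1 of the 4 arrays of C delta53 at 0 and 30 min, replicate 2 of C delta94 at 0 min or replicate 1 of C delta94 at 30 min. The 9 also became 5 without replicate 2 of C delta53 at 0 min or at 10 min, replicate 1 of C delta94 at 10 min, or replicate 2 of 2C/S-H/Y at 0 min.

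Few members kept 1 sign in every strain. At 120 min the change was positive in all 4 strains for 3 genes, 6.38% of the 47 against 16.3% of all features, and these were mrpl40, mrps12 and mrps18. It was negative in all 4 for 5 genes, 10.6% against 13.6%, and these were mrpl20, mrpl3, mrps9, mrps28 and mrp51. Several of these changes were too small to pass the test in single strains. The signs are those of probe averages. For mrpl40, mrps12 and mrps18, 1 of the probes fell in some strain. For mrpl20, mrps9, mrps28 and mrp51, 1 of the probes rose in some strain.

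The broadest fall was in C delta53 at 120 min. There 20 of 47 members were lower and 1 higher, where 21.3% of all features were lower and 19.8% higher, and the median of the 47 was −0.25. In all, 38 of 47 had a negative change, over both subunits: 12 of the 29 mrpl genes were lower, 4 of the 8 mrps genes and 4 of the 10 mrp genes. At the earlier times the same strain had 3 higher and 1 lower at 10 min (1.60% and 0.899% of all features), 1 and 0 at 30 min (2.26% and 1.58%), and 1 and 2 at 60 min (4.48% and 4.12%). With each near-repeat pair of arrays counted once, which leaves 1 value per time for C delta53, 9 members were lower and 1 higher at 120 min, against 7.31% and 7.49% of all features.

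The gene mrpl20 read −0.44 and −0.40 in C delta53 at 0 min and −1.91 and −2.01 at 120 min. The later arrays were far below the earlier ones, a fall of 1.54 on the log2 scale (SE 0.160, adjusted p = 1.58e-08), or 2.9-fold. At 10 min it read −1.03 and −1.05, at 30 min −0.53 and −0.59, and at 60 min −1.01 and −0.89, so the fall was not steady. After quantile normalization of the arrays the 120 min change was −0.73 (adjusted p = 0.0106).

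The gene mrp17, whose small-subunit protein has a bacterial counterpart, fell in this strain too. It read −0.51 and −0.58 at 0 min, −0.77 and −0.79 at 60 min and −1.53 and −1.5 at 120 min. The change at 120 min was −0.97 (SE 0.097, adjusted p = 8.01e-09), or 1.95-fold lower, and −0.37 after quantile normalization (adjusted p = 0.00975). The small-subunit gene mrps8 read −0.18 and −0.17 at 0 min and −1.02 and −1.0 at 120 min, a change of −0.83 (SE 0.094, adjusted p = 5.32e-08). Its probes did not share this equally: probe 1 changed by −1.43 and probe 2 by −0.242, and the call was lost when both probes had to pass (adjusted p = 0.124).

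Further falls in C delta53 at 120 min reached −0.79 for mrps26, −0.78 for mrpl4, −0.63 for mrpl12, and −0.58 each for mrp20, a protein at the exit tunnel of the budding yeast ribosome, and mrpl24. The arrays of mrps26 read −0.01 and −0.00 at 0 min and −0.82 and −0.77 at 120 min, and those of mrpl4 read −0.22 and −0.22 at 0 min and −1.06 and −0.94 at 120 min.

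**Figure D3:**
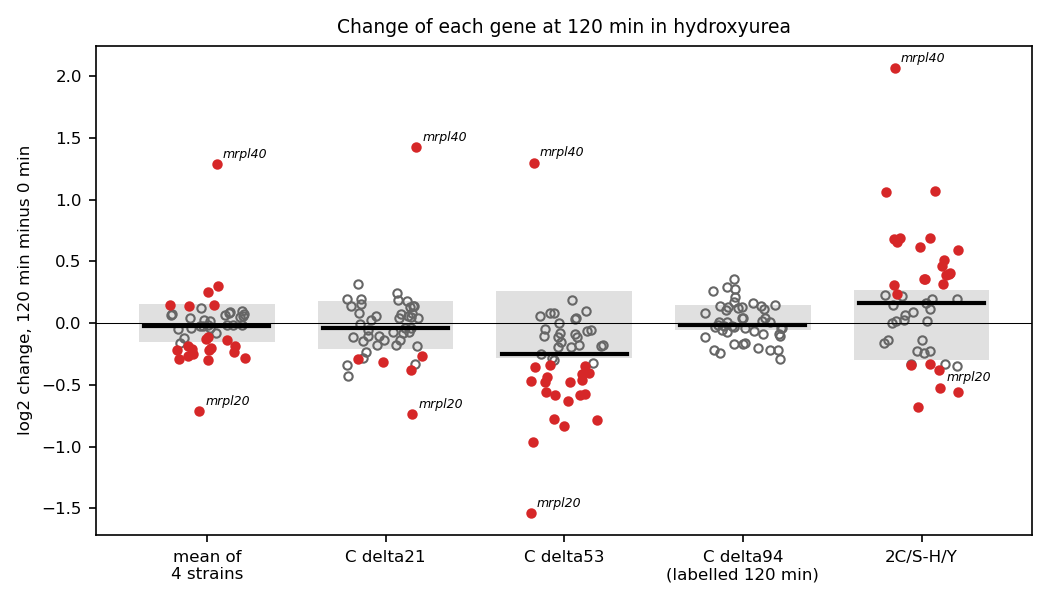
Change in log2 ratio from 0 to 120 min for each of the 47 genes in each strain: red points passed the test, open points did not, the black line is the median of the 47 and the grey box spans the quartiles of all features. The median lies at −0.25 in C delta53 and 0.16 in 2C/S-H/Y, and the points of C delta94, at times as labelled, are close to 0.

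In C delta21 at 120 min 5 members were lower and 1 higher, that is 10.6% and 2.13% of the 47 against 12.6% and 11.5% of all features, with a median of −0.04 against −0.01. The share that was lower was thus no larger than that of all features, and the lower members are given as single genes. The gene mrpl20 read 0.32 and 0.72 at 0 min and −0.21 and −0.23 at 120 min, and although the first pair of arrays was wide apart, both lay above the second pair; the change was −0.74 (SE 0.160, adjusted p = 0.00128). The gene mrp17 read 0.39 and 0.54, then 0.07 and 0.10, a change of −0.38 (adjusted p = 0.00531). The change of mrpl12 was −0.32 (adjusted p = 0.0354), and mrpl3 and mrpl28 also fell. Without replicate 1 of C delta21 at 0 min, 3 members were called at 120 min in place of 6. The 5 lower became 2 without that array and 3 without either array of 120 min, and without replicate 1 of C delta21 at 120 min mrpl12 changed by −0.20 (adjusted p = 0.334). At 10, 30 and 60 min this strain had 1, 1 and 2 members higher and 1, 0 and 4 lower, against 1.06%, 0.859% and 4.88% of all features higher and 1.12%, 0.600% and 12.9% lower.

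In C delta94 limma called 0 members at 10 min (3 higher and 1 lower at an unadjusted p below 0.05), where 0.0400% of all features were higher and 0.0400% lower, and 0 at the time labelled 120 min, where 0.639% were higher and 0.120% lower. At the latter, limma gave 4 higher and 4 lower at an unadjusted p below 0.05, and 1 call when replicate 1 of that time was left out. At the time labelled 30 min, 6 members were higher and 6 lower (12.5% and 11.7% of all features), and at 60 min 1 and 2 (2.70% and 2.64%). The 6 lower ones at 30 min were mrps26 at −0.62, mrpl23 at −0.40, mrp17 at −0.37, mrpl12 at −0.35, mrpl3 at −0.34 and mrp2 at −0.33. The higher ones were mrpl40 at 1.25, mrps16 at 0.49, mrpl50 at 0.43, mrp21 at 0.35, mrps18 at 0.31 and mrp7 at 0.27. The gene mrpl20 was not among them: its arrays read 0.17 and 0.39 at 0 min, −0.01 and 0.15 at 30 min and 0.27 and 0.17 at 120 min; only the first and last of these pairs overlap, and the change labelled 120 min was −0.06 (adjusted p = 0.956).

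In 2C/S-H/Y more members were higher than lower. At 120 min 19 members were higher and 6 lower, against 21.5% and 22.8% of all features, with a median of 0.16. The rise was seen already at 10 min, with 12 higher and 2 lower (12.2% and 10.9%), then 12 and 4 at 30 min (13.6% and 12.3%) and 14 and 3 at 60 min (15.5% and 13.9%). At 120 min the higher members were 12 of the 29 mrpl, 3 of the 8 mrps and 4 of the 10 mrp genes. When the 10 min arrays, which resembled the later ones, were the base in place of the 0 min arrays, 7 members were higher and 2 lower at 120 min, against 13.2% and 13.5% of all features, and the median was 0.00.

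The gene mrpl39, a large-subunit protein with a bacterial counterpart, read −0.66 and −0.67 at 0 min, 0.05 and −0.11 at 10 min, and 0.59 and 0.22 at 120 min. All later arrays were above the first pair, and the change at 120 min was 1.07 (SE 0.136, adjusted p = 3e-07), or 2.1-fold. From the 10 min arrays it was 0.43 (adjusted p = 0.0176). In the other strains its arrays lay between 0.12 and 0.30 at 0 and 120 min.

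The gene mrps16 read 0.60 and 0.90 in 2C/S-H/Y at 0 min, 1.37 and 1.47 at 10 min, and 1.60 and 2.02 at 120 min. The change at 120 min was 1.06 (SE 0.173, adjusted p = 1.36e-05); from the 10 min arrays it was 0.39 (adjusted p = 0.0955), and after quantile normalization from 0 min it was 0.33 (adjusted p = 0.151). The large-subunit gene mrpl35 read −0.03 and 0.04 at 0 min and 0.64 and 0.75 at 120 min, and mrpl7 read −0.46 and −0.32, then 0.32 and 0.27; each changed by 0.69, with adjusted p-values of 7.17e-06 and 9.26e-05.

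Of the 6 lower members in 2C/S-H/Y, mrps28 read −0.35 and −0.39 at 0 min and −1.16 and −0.95 at 120 min, a change of −0.68 (adjusted p = 0.000571). The gene mrpl3 read −0.15 and −0.18, then −0.77 and −0.68, a change of −0.56 (adjusted p = 6.7e-05). The gene mrpl20 read 0.73 and 0.65, then 0.00 and 0.33, a change of −0.52 (adjusted p = 0.00948). Here too the arrays of the first time lay above those of the second for all 3 genes. From the 10 min arrays the changes of mrps28 and mrpl3 were −0.26 and −0.24 and did not pass (adjusted p = 0.221 and 0.0829), whereas that of mrpl20 was −0.63 (adjusted p = 0.00428).

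**Figure D4:**
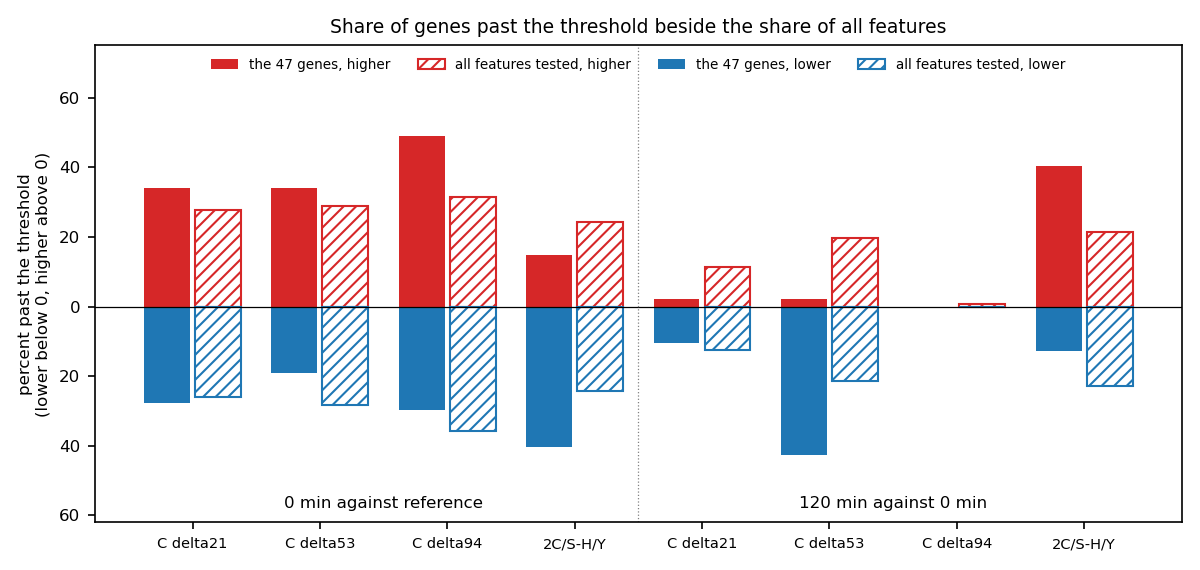
Share of genes called higher (red) or lower (blue) among the 47 (filled) and among all features (hatched), by strain, at 0 min against the reference (left) and at 120 min against 0 min (right). At 120 min in C delta53, 20 of 47 are lower against 21.3% of all features, and in 2C/S-H/Y 19 of 47 are higher against 21.5%.

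The strains differed in their time courses for 30 of the 47 genes (63.8%), by limma's F test of the interaction of strain and time, as they did for 52.6% of all features. With near-repeat arrays counted once 11 of the 47 passed, against 17% of all features, and with both probes required to pass 10, against 20.1%. Within strains, the F test over time called 8 of 47 in C delta21, 29 in C delta53, 8 in C delta94 and 22 in 2C/S-H/Y, against 24.5%, 49.8%, 33.7% and 43.0% of all features. The smallest p-values of the interaction were those of mrp17, mrpl40, mrps8, mrpl10, mrp20 and mrpl35. Tested pair by pair in the 120 min response, C delta53 and 2C/S-H/Y differed for 24 members, 23 of them lower in C delta53 and 1 higher, against 14.8% and 13.1% of all features, with a median difference of −0.47. The differences of C delta53 minus 2C/S-H/Y were −1.43 for mrps8 (SE 0.133, adjusted p = 9.17e-09), −1.36 for mrp17 (SE 0.137, adjusted p = 4.62e-08), −1.01 for mrpl20 (adjusted p = 0.00138) and 0.44 for mrpl3 (adjusted p = 0.0223). The call of mrpl3 was lost without any 1 of the 4 arrays of C delta53 at these times, replicate 1 of 2C/S-H/Y at 0 min or replicate 1 of 2C/S-H/Y at 120 min. With near-repeat arrays counted once 16 members were lower and 0 higher, against 5.04% and 4.08%. With 10 min as the base of both strains, an alternative chosen after seeing the data, 14 members were lower and 0 higher, against 9.23% and 7.15% of all features; the change of mrpl3 then had the other sign (−0.12, adjusted p = 0.62).

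C delta21 exceeded C delta53 for 11 members and fell below it for 0 (limma gave 1 at an unadjusted p below 0.05), against 8.95% and 6.81% of all features, with a median difference of 0.21. The largest were mrps26 at 0.86 (adjusted p = 0.00576) and mrpl20 at 0.80 (adjusted p = 0.0169); for mrpl20, quantile normalization gave −0.11 (adjusted p = 0.85). With near-repeat arrays counted once limma called 0 members, and 11 were higher at an unadjusted p below 0.05. C delta21 was lower than 2C/S-H/Y for 17 members and higher for 4 (10.1% and 8.49%), led by mrpl39 at −1.03 (adjusted p = 0.000465) and mrpl10 at −1.02 (adjusted p = 0.000642), with mrps28 at 0.67 and mrpl17 at 0.47 on the other side. With 10 min as the base of both strains 1 member was called, where 1.74% of all features were higher and 0.779% lower. The difference of mrpl10 was then 0.49 (adjusted p = 0.222). The 21 called became 11 without replicate 1 of C delta21 at 0 min, 12 without replicate 1 or replicate 2 of 2C/S-H/Y at 0 min, and 13 without replicate 1 of 2C/S-H/Y at 120 min. The 4 higher became 0 to 2 without replicate 1 of C delta21 at 0 min, replicate 2 of C delta21 at 120 min, either array of 2C/S-H/Y at 0 min or replicate 2 of 2C/S-H/Y at 120 min.

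Comparisons with C delta94 rest on its labelled 120 min arrays. C delta53 was lower for 10 members and higher for 1 (13.2% and 9.33% of all features), among them mrpl20 at −1.48 (adjusted p = 2.86e-05) and mrps8 at −0.80 (adjusted p = 8.01e-05), and 18 were called without replicate 1 of C delta94 at 120 min. The difference of mrps8 came mostly from probe 1, which went from 0.05 to −1.38 in C delta53, while probe 2 went from −0.40 to −0.64. In C delta94 both probes moved little, from −0.435 to −0.455 and from −0.924 to −0.981. C delta94 was lower than 2C/S-H/Y for 12 and higher for 3 (11.6% and 14.5%). The largest differences were mrpl40 at −1.71, to which probe 2 gave most, and mrpl39 at −1.10 (adjusted p = 9.49e-05). The 3 higher became 0 without replicate 1 of C delta94 or of 2C/S-H/Y at 0 min, and 1 without replicate 2 of either at 0 min, replicate 2 of C delta94 at 120 min or replicate 1 of 2C/S-H/Y at 120 min. With 10 min as the base of both strains 5 were lower and 1 higher, against 6.83% and 7.57% of all features. C delta21 differed from C delta94 in 1 member, mrpl40, at 1.07 (adjusted p = 0.00142; 2.60% of all features were higher and 2.92% lower), and in 2 without replicate 1 of C delta21 at 0 min or of C delta94 at 120 min.

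**Figure D5:**
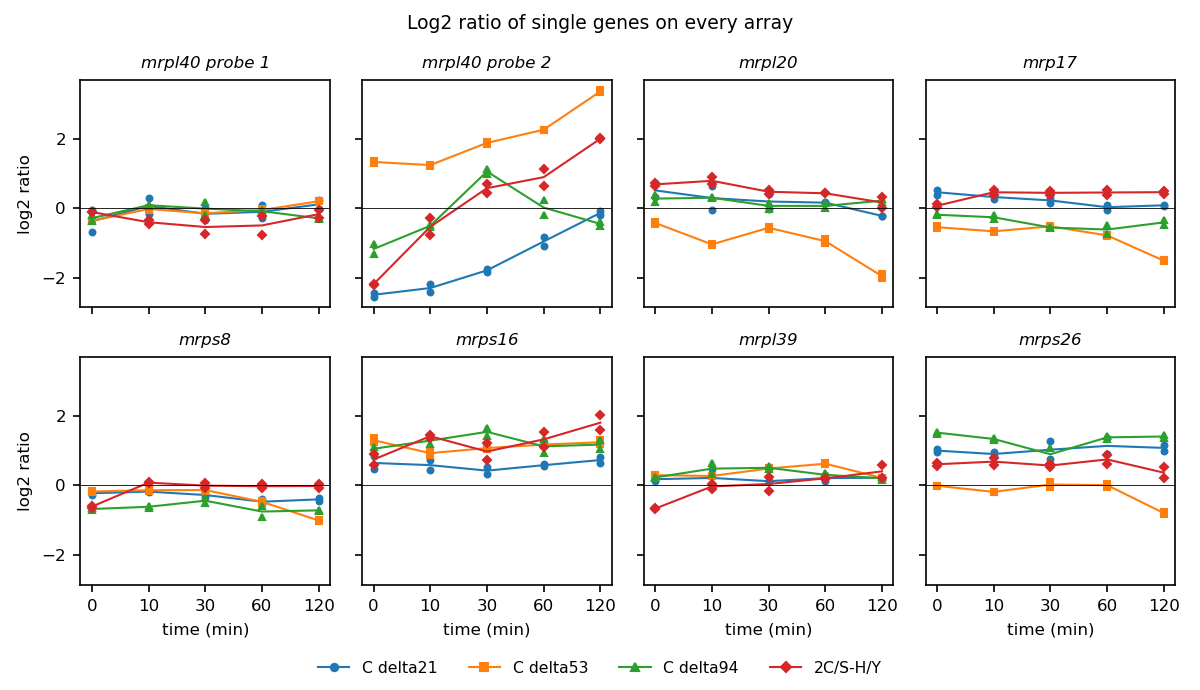
Log2 ratio of strain over reference against time in HU for mrpl40 (its 2 probes apart), mrpl20, mrp17, mrps8, mrps16, mrpl39 and mrps26: points are single arrays and lines join the means of 2 arrays, 1 marker per strain. Probe 2 of mrpl40 ends at 3.40 and 3.34 in C delta53, while probe 1 ends at 0.21 and 0.20; mrpl20, mrp17 and mrps8 drop at 120 min in C delta53.

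The size of the rise of mrpl40, the gene called most strongly higher, came mostly from 1 of its probes. In budding yeast its protein sits at the exit tunnel of the large subunit. Probe 2 read −2.18 and −2.20 in 2C/S-H/Y at 0 min and 2.02 and 1.99 at 120 min, whereas probe 1 read −0.11 and −0.10, then −0.28 and −0.06. In C delta53 probe 2 read 1.36 and 1.31, then 3.40 and 3.34, and in C delta21 −2.56 and −2.43, then −0.19 and −0.08. Probe 1 stayed between −0.69 and 0.23 in C delta21, C delta53, C delta94 and 2C/S-H/Y at 0 and 120 min. The changes at 120 min, probe 2 first, were in 2C/S-H/Y 4.20 and −0.06, then 2.03 and 0.57 in C delta53, 2.36 and 0.49 in C delta21 and 0.72 and −0.00 in C delta94. The averaged values of mrpl40 were 2.07, 1.30 and 1.43 in 2C/S-H/Y, C delta53 and C delta21 (adjusted p = 4.33e-12, 4.86e-08 and 3.04e-08). In 2C/S-H/Y the probes changed in opposite directions, and in C delta21 the weaker probe did not pass by itself (adjusted p = 0.0724).

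The probe numbering of the array follows the order of genes along the chromosomes, and mrpl40 is out of place in it. For 46 of the 47 genes, the probes numbered within 3 of its own included a gene at most 7 genes away in the RefSeq order (assembly ASM294v3). For mrpl40 the nearest was 190 genes away. Distances over 10 genes occurred for 6.58% of 4787 genes placed in this way. Over the 20 groups, probe 2 correlated most with rtc3 (r = 0.984), tps1, a trehalose synthesis gene (0.956), and ish1 (0.951); this was looked up after the values were seen. Which transcript these probes read was not tested, and the values of mrpl40 are those of the feature so named.

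The probes of mrpl10 also disagreed: over the 40 arrays probe 1 lay between −0.70 and 0.39 and probe 2 reached 2.68, with a correlation of 0.16 between them. Its averaged 0 min value in C delta21, 1.36 and 0.95, was the highest of the 47 there, and did not pass when both probes had to. Over the 47 genes the correlation between probes had a median of 0.66, against 0.78 over all named genes, and was below 0 for mrpl1, mrp2 and mrpl15. The signs of the 120 min mean change differed between probes for 14 of 47.

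The 47 genes shared little of their pattern over the 20 groups. The median correlation over their 1081 pairs was 0.099 (quartiles −0.407 and 0.504), against 0.00442 over pairs of all features (quartiles −0.396 and 0.406). The points share strains, arrays and 1 reference, so no p is given. Most like the mean of the others were mrps17 (r = 0.811), mrpl19 (0.783) and mrpl25 (0.648), and least like it mrps18 (−0.352), mrpl31 (−0.331) and mrpl37 (−0.325). Of the 47 correlations with that mean, 34 were positive. The first 3 were all lower in C delta53 at 120 min, at −0.57, −0.47 and −0.35 (adjusted p = 0.000616, 0.00317 and 0.0418). They were chosen for likeness to the mean of the others over groups that include this one, so their falls are no separate evidence.

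Other genes of the mitochondrion were counted in the same 2 strains, where the shares of all features at 120 min were those given above. Of 15 genes named otherwise as mitochondrial ribosomal proteins, such as rml2, bot1, nam9 and the rsm genes, 9 were lower and 0 higher in C delta53 at 120 min, with a median of −0.38 and the largest falls in rml2 (−0.82), rsm19 (−0.69) and bot1 (−0.51). That list includes rsm1, which in fission yeast names an RNA export factor. In 2C/S-H/Y 5 of the 15 were higher and 1 lower. Of 22 genes for import into mitochondria, 11 were lower and 0 higher in C delta53, with a median of −0.31; 4 were higher and 5 lower in 2C/S-H/Y. Of 45 respiratory chain and ATP synthase genes, 17 were lower and 4 higher in C delta53, and 12 higher and 7 lower in 2C/S-H/Y. Of 8 mitochondrial translation factors, 0 were higher and 2 lower in C delta53, with a median of −0.07, and 0 were higher and 4 lower in 2C/S-H/Y, with a median of −0.40. Of 11 mitochondrial RNA factors, 2 were higher and 4 lower in C delta53, with a median of −0.05, and 2 were higher and 4 lower in 2C/S-H/Y, with a median of 0.04.

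Genes of the cytosolic ribosome, which makes the bulk of cell protein, were counted in the same way. Of 116 cytosolic ribosomal protein genes, 27 were lower and 2 higher in C delta53 at 120 min, 22 lower and 6 higher in 2C/S-H/Y, and 48 lower and 2 higher on average over strains. At 0 min against the reference, 107 of the 116 were higher and 0 lower in C delta21, 59 and 9 in C delta53, 7 and 25 in C delta94, and 86 and 5 in 2C/S-H/Y. The shares of all features were 27.8% higher and 26.1% lower, 29.0% and 28.3%, 31.6% and 35.8%, and 24.3% and 24.3%, in the same order. The mitochondrial genes had 16 higher and 13 lower, 16 and 9, 23 and 14, and 7 and 19 of 47. Of 55 ribosome biogenesis genes, 34 were lower and 1 higher in C delta53, and 25 lower and 2 higher in 2C/S-H/Y.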

How the data were processed

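The labels describe total RNA extracted with hot phenol, aminoallyl-labelled cDNA, Cy5 for the strain and Cy3 for the pooled wild-type reference. The samples' description field also names another mutant, so strains were taken from titles. The values were the authors' deposited log2 ratios, 1 per probe and array. The base was settled from them: among values below 0, taking 2 as the base returned multiples of 0.001 (tolerance 0.02 of a step) in 100% of cases; base 10 did so in 3.48% and base e in 5.51%. Their direction was taken as Cy5 over Cy3. The sources used here do not give the scanner, background correction or normalization, and spot signals were not used, so depth of signal is unknown and the number of arrays limits precision. The arrays had medians of −0.122 to 0.0621, and no pair correlated below −0.0583. Of all values 1.17% were missing, and of the 94 probes of the 47 genes 8 values.

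Of 9858 probes, 9632 had 1 symbol, 44 several and 182 none; the 2 probes of a gene were averaged. Features needed a value on 80% of arrays and 1 array of every group, which left out 38 of 5042. Group means (20) were fitted by lmFit and eBayes of limma 3.58.1, under R 4.3.3, leaving 20 residual degrees of freedom. Benjamini-Hochberg adjustment was over 5004 features. The fit was also run on simulated arrays with independent noise. Those held no near-repeat pairs, so that run says nothing about the effect of such pairs. Figures used matplotlib 3.10.9 in Python 3.11.15. Genes were named by size of change past the threshold: up to 8 in each direction for the mean at 120 min and 4 earlier, 3 per strain at 120 min and at 0 min, 2 per pair of strains, the 6 smallest interaction p-values, and the 3 most and 3 least like the mean; further names are called members or probes chosen after their values were seen. All 47 symbols were found in RefSeq (ASM294v3), used for names and gene order only. Subunits were read from the symbols, since the table holds no product names, and no promoter was searched. The members and gene lists were chosen with earlier results of these data known. Alternatives were quantile normalization, probes tested apart, near-repeat arrays counted once, only the groups compared, no filter, values on all 40 arrays, a replicate block, a strain or an array left out, and 10 min as the base.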

Additional observations from a re-analysis of the deposited data

Results flagged for a closer look

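The time courses of 30 of the 47 genes differed between the strains by limma's test of the interaction of strain and time, which 52.6% of all features passed. The count was 11 with near-repeat arrays counted once (17% of all features) and 10 with both probes required to pass (20.1%). Among the genes named in the report, the adjusted p was 5.86e-07 for mrp17, 8.89e-07 for mrpl40, 1.11e-06 for mrps8, 4.53e-05 for mrpl10, 0.000214 for mrp20 and 0.000343 for mrpl35. It was 0.000347 for mrp7, 0.000552 for mrpl20, 0.000668 for mrp10, 0.000814 for mrpl39 and 0.000863 for mrp21. It was 0.00145 for mrpl12, 0.00183 for mrpl8, 0.00228 for mrps26, 0.00369 for mrps16, 0.00412 for mrpl38 and 0.00802 for mrps28. The others were 0.011 for mrpl31, 0.0134 for mrpl17, 0.0141 for mrps18, 0.0209 for mrpl19, 0.0298 for mrpl16 and 0.0414 for mrps17. The values of mrpl40 and mrpl10 are averages of 2 probes that disagree; for mrpl40 the larger changes were those of probe 2. Groups of 2 arrays are too small to look for a single array far from the others.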

How the results depend on the processing

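A replicate block, 1 shift between replicates 1 and 2 shared by all strains, changed none of the 93 named results. It moved no count by over 1.5 times, but it cannot take up a pairing within a strain. Same-numbered arrays of a strain deviated together with a median correlation of 0.115 and up to 0.65, over 0.1 in 21 of 40 pairs of groups. Between strains the median was 0.028, with 26 of 150 pairs over 0.1. The labels do not pair arrays. With no filter, or with values on all 40 arrays, no named result changed. With near-repeat arrays counted once, 20 of 93 named results no longer passed, and the members called became 1 of 9 for the mean at 10 min, 4 of 11 at 30 min, 13 of 22 at 120 min, 3 of 6 in C delta21 and 10 of 21 in C delta53 at 120 min, 10 of 25 in C delta53 at 0 min, 0 of 11 for C delta21 minus C delta53 (11 at an unadjusted p below 0.05 in limma), 10 of 21 for C delta21 minus 2C/S-H/Y, 7 of 11 for C delta53 minus C delta94 and 11 of 30 for the interaction, where 17% of all features passed. These counts fell with those of all features, whose shares were 0.919% higher and 0.6% lower, 7.29% and 7.11%, and 18.1% and 17.8% for the means at 10, 30 and 120 min, 7.87% and 8.19% in C delta21 and 7.49% and 7.31% in C delta53 at 120 min, 14.1% and 14.4% in C delta53 at 0 min, and 1.28% and 0.739%, 4.78% and 6.1%, and 2.36% and 3.44% for the 3 pairs. Fitting only the groups compared gave 38 in C delta53 at 120 min, where 38.1% of all features were higher and 40.6% lower, 40 there at 0 min (43.2% and 41.8%), 19 for C delta21 minus C delta53 (17.5% and 16.8%) and 9 for C delta21 minus 2C/S-H/Y (6.01% and 6.93%). With both probes required to pass, the means had 0 (4 unadjusted), 2, 3 and 10 calls at 10, 30, 60 and 120 min, the strains C delta21, C delta53 and 2C/S-H/Y 1, 9 and 13 at 120 min, and the 4 strains 14, 9, 22 and 13 at 0 min; the pairs had 2, 0 (2 unadjusted), 2, 5, 13 and 3 in the order C delta21 with C delta53, C delta94 and 2C/S-H/Y, C delta53 with C delta94 and 2C/S-H/Y, and C delta94 with 2C/S-H/Y, and the interaction 10, where 20.1% of all features passed. In this setting all features had 8.42% higher and 10.1% lower in C delta53 and 12.2% and 10.9% in 2C/S-H/Y at 120 min. In C delta21 they had 4.06% and 4.2%. The means had 1.03% and 0.718%, 4.98% and 5.14%, 5.34% and 9.5%, and 13.2% and 13.3%. At 0 min the 4 strains had 14.8% and 11%, 15.9% and 13.8%, 19.5% and 25.5%, and 15% and 12.2%. The pairs with C delta21 had 1.66% and 1.06%, 0.786% and 0.292%, and 1.84% and 2.74%. The remaining pairs had 2.22% and 3.73%, 3.48% and 5.34%, and 4.96% and 4.54%. Quantile normalization gave 6 for C delta53 minus C delta94 (5.9% of all features were higher and 6.2% lower). It turned the mean change of mrps16 to −0.15 and mrpl20 in C delta21 minus C delta53 to −0.11. It gave 0 higher and 16 lower for C delta21 minus 2C/S-H/Y (7.63% and 10.2%). For C delta94 minus 2C/S-H/Y it gave 0 and 12 (10.6% and 11.6%). It shifted the median of all features by at most 0.0577. Without 2C/S-H/Y the means had 5 calls at 10 min and 3 at 30 min. All features then had 3.04% higher and 1.9% lower at 10 min, and 9.21% and 8.71% at 30 min. The 120 min averages of mrpl39, mrp7 and mrpl35 turned to −0.020, −0.011 and −0.040. Without C delta94 the 30 min mean had 6 calls, where 7.97% of all features were higher and 9.03% lower. With 10 min as the base, 2C/S-H/Y had 9 calls, and with it as the base of both strains, chosen after seeing the data, C delta21, C delta53 and C delta94 minus 2C/S-H/Y had 1, 14 and 6, and mrpl10 and mrpl3 turned to 0.49 and −0.12. Leaving out 1 array gave 17 to 19 calls in 2C/S-H/Y and 12 to 13 in C delta53 at 0 min, 3 to 5 in C delta21 and 0 to 1 in C delta94 at 120 min, 5 to 11 and 7 to 13 for the means at 10 and 30 min, 11 to 18 for C delta21 minus 2C/S-H/Y, 1 to 2 for C delta21 minus C delta94 and 9 to 18 for C delta53 minus C delta94. For arrays left out, the shares of all features were not computed, and leaving out 1 of 2 arrays widens the standard error by itself. The causes were not tested. Spot signal is not among the values used, so low-signal probes cannot be set apart.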

Other observations

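In the RefSeq gene order, mrpl28 and mrps12 are neighbours. In C delta21 at 120 min mrpl28 was lower. By the average of its probes, mrps12 was among the 3 genes with a positive change in all 4 strains. The changes of mrps12 were small and passed limma's test in no strain (lowest adjusted p = 0.324, in 2C/S-H/Y).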
